A study of Homo sapiens with 16 samples.

Results

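The integrin and laminin chain genes are the protein-coding genes whose symbols name an integrin alpha or beta subunit or a laminin alpha, beta or gamma chain. The symbol pattern was applied to all 58735 genes of the deposited table, of which 19951 are protein-coding, and it found 38 genes. They comprise 18 integrin alpha, 8 integrin beta, 5 laminin alpha, 4 laminin beta and 3 laminin gamma genes. Their messenger RNA was measured in SW620, a line from a human colorectal cancer, holding a scramble control hairpin or a hairpin against ATF4 (shATF4). ATF4 is a transcription factor through which cells respond to amino acid shortage and endoplasmic reticulum stress. Both lines were sequenced untreated (3 libraries each), after 24 h in 5 µM 5-fluorouracil (5-FU; 3 libraries each) and after 48 h in 5 µM 5-FU (2 libraries each). 5-FU is a pyrimidine analogue used as chemotherapy. All 6 groups carried a hairpin, and the hairpins' sequences were not used here. With 1 shATF4 line and 1 scramble line, an effect of losing ATF4 and any other difference between the 2 lines cannot be told apart. The untreated libraries have no time of their own, so 1 untreated group per line served both times, and time in culture and time in the drug cannot be told apart. The libraries titled as 48 h carry a treatment tag that reads 24 h, and the titles were followed.

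Laminins are the large cross-shaped glycoproteins of the basement membrane, and each secreted molecule joins an alpha, a beta and a gamma chain. Laminin-332, whose alpha and beta chains come from LAMA3 and LAMB3, is the laminin that anchors epithelia, while LAMA5, LAMB1 and LAMC1 supply the chains of laminin-511. Integrins are receptors made of an alpha and a beta subunit: pairings of ITGA3, ITGA6 and ITGA7 with ITGB1, and of ITGA6 with ITGB4 in hemidesmosomes, bind laminin, while other pairings bind collagen, fibronectin or the counter-receptors of blood cells.

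Total counts ran from 14571611 to 17824188 per library, and the 38 genes took 0.174% to 0.373% of them. A gene entered the tests if its counts passed a minimum in enough libraries, which 28 of the 38 did. The 10 untested genes were ITGA4, ITGA8, ITGA9, ITGA11, ITGAD, ITGAL, ITGAM, ITGB3, LAMA1 and LAMA4, and over the 16 libraries together they had 48 (ITGA9), 47 (ITGA11), 39 (ITGAM), 36 (LAMA1), 18 (ITGAL), 17 (ITGB3), 9 (ITGAD), 6 (LAMA4) and 0 counts (ITGA4 and ITGA8). Of the 47 counts of ITGA11, 11 were in shATF4 24 h replicate 3. Of the 28 tested, 23 reached the minimum level in every group and 5 (ITGA2B, ITGAX, LAMA2, LAMB4 and LAMC3) in some groups only. Such a gene could enter through the group where it was high, so the counts below describe the tested genes and not the whole families. ATF4 itself stood at 364 to 388 CPM (counts scaled to the size of the library, with TMM factors) in untreated scramble libraries and 169 to 179 CPM in untreated shATF4 libraries. It was lower in shATF4 by 1.13 (log2) untreated, 1.34 at 24 h and 1.52 at 48 h. Mitochondrial mRNA made up 1.42% of the counts of scramble untreated replicate 2 and 0.753% and 0.766% of its 2 fellow replicates. RNA of the signal recognition particle made up 0.0713% of the counts of shATF4 24 h replicate 3 and 0.0224% and 0.0241% of its fellows. At a lower level, that RNA made up 0.0161% of the counts of scramble untreated replicate 1 and 0.00368% and 0.0031% of its fellows. Epithelial markers summed to 11095 to 12475 CPM in untreated scramble libraries and to 7314 to 7496 CPM at 48 h, and in shATF4 to 6507 to 6968 CPM at 48 h, with CDX1 at 0 in every untreated library. KRT8, KRT18 and KRT19 made up most of that sum, and CDH1 (E-cadherin) went the other way, with means of 190 CPM untreated, 419 CPM at 24 h and 375 CPM at 48 h in scramble. CDX2 went from 12.9 to 17.9 CPM at 48 h in scramble and from 14.3 to 35.2 CPM in shATF4. Sums of markers of other cell types moved with 5-FU too. In scramble the 6 fibroblast markers summed to 35.4 to 44.4 CPM untreated, 56.9 to 62.6 CPM at 24 h and 53.7 to 55.4 CPM at 48 h, with COL3A1 at 0 in every library. The 5 endothelial markers summed to 3.68 to 4.17 CPM untreated, 8.57 to 11.4 CPM at 24 h and 12.4 to 14.2 CPM at 48 h, with CDH5 and KDR at 0 when untreated. In shATF4 the fibroblast sum went from 36.3 to 38.3 CPM untreated to 56.6 to 63.9 CPM at 48 h, and the endothelial sum from 3.67 to 5.12 CPM to 6.92 to 7.98 CPM. Their part in the members' changes was not tested. In bulk samples, fewer cells of a type and less RNA per cell cannot be told apart.

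Compared per unit of gene length (FPKM, as deposited), the untreated scramble cells expressed a few chains far above the rest. The length is that of all exons of a gene's transcripts joined, which can exceed that of the transcripts expressed. Which transcripts were expressed was not measured, so ratios and shares between genes depend on these lengths. Among alpha subunits ITGA6 stood at 65.3 ± 4.04 FPKM (SD, n = 3), or 68.1% of the family's summed FPKM. ITGA7 followed at 10.0 ± 1.87, ITGAE at 6.59 ± 0.902, ITGAV at 4.91 ± 0.734, ITGA2 at 3.83 ± 0.228, ITGA5 at 3.01 ± 0.325 and ITGA3 at 1.61 ± 0.103 FPKM. The remaining alpha subunits were at or under 0.227 FPKM, the level of ITGA1. Among beta subunits ITGB4 (58.8 ± 8.10 FPKM) and ITGB1 (54.4 ± 4.83) led and did not differ beyond their spread. ITGB5 stood at 21.2 ± 0.802 FPKM, while ITGB7 and ITGB8 were both at 1.17 FPKM. Among the laminin chains LAMB3 was highest at 25.0 ± 1.68 FPKM, followed by LAMA5 (13.5 ± 3.23), LAMC1 (11.6 ± 0.861), LAMB1 (9.42 ± 0.374), LAMB2 (6.47 ± 1.65) and LAMA3 (1.63 ± 0.117). LAMA5 and LAMC1 did not differ beyond their spread. LAMB3 was thus at 15.3 ± 1.09 times the FPKM of LAMA3 in untreated scramble cells. That ratio rests on lengths of 4688 bases for LAMB3 and 14678 bases for LAMA3. Before division by length, their means were 119 and 24.4 CPM.

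Most of the tested genes rose with 5-FU in both lines, and their median change was larger at 48 h than at 24 h in each. Calls rest on an adjusted p under 0.05, from the quasi-likelihood test of edgeR and the Benjamini-Hochberg adjustment over all 17309 tested genes, and changes are log2 changes of CPM with their SE. In scramble cells 17 of 28 rose and 1 fell at 24 h, a share of 64.3%, where 44% of all genes tested were called. At 48 h 18 rose and 3 fell (75%, against 60.7% of all genes). In shATF4 cells 17 rose and 4 fell at 24 h (75%, against 44.4%), and 17 rose and 2 fell at 48 h (67.9%, against 58.3%). Of all genes, 21.8% rose and 22.2% fell at 24 h and 30.6% rose and 30% fell at 48 h in scramble. In shATF4 23.2% rose and 21.2% fell at 24 h and 29.6% rose and 28.7% fell at 48 h. The median change of the tested members was 0.67 at 24 h and 1.56 at 48 h in scramble, beside -0.01 and 0.03 over all genes, and 0.61 and 1.0 in shATF4, beside 0.03 at both times. Among the 23 genes that reached the minimum in every group, 14 rose and 1 fell at 24 h in scramble (65.2% called), and 14 rose and 3 fell at 48 h (73.9%). In shATF4, 14 of these 23 rose and 3 fell at 24 h (73.9%), and 14 rose and 2 fell at 48 h (69.6%). Their median changes at 24 h and 48 h were smaller than those of all 28, at 0.63 and 1.28 in scramble and 0.41 and 0.74 in shATF4. The genes called lower at 24 h were ITGA6 in scramble and ITGB1, ITGB4, LAMA5 and LAMC3 in shATF4, and at 48 h ITGA6 and ITGB8 in both lines and ITGAE in scramble. A rise of 1 or more on the log2 scale was called for 17 genes at 48 h in scramble and for 13 in shATF4, and no fall of that size was called. The share of all genes with a call of that size was not counted, so these numbers describe the members only. At 48 h the lines shared 16 of their risen genes, 88.9% of the scramble list and 94.1% of the shATF4 list, with ITGA10 and LAMC3 called in scramble and LAMB1 in shATF4. At 24 h they shared 15 of 17 and 17, with ITGA1 and ITGB2 called in scramble and LAMB1 and LAMC1 in shATF4. The overlap between the lines over all called genes was not counted, so such sharing is not shown to be particular to these genes. Upper-quartile scaling moved the median of all genes at 48 h to 0.17 in scramble and 0.16 in shATF4. Under it, 60.1% and 61.4% of all called genes were higher at 24 h and 48 h in scramble and 61.2% at 48 h in shATF4, against 49.5%, 50.5% and 50.7%.

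**Figure D1:**
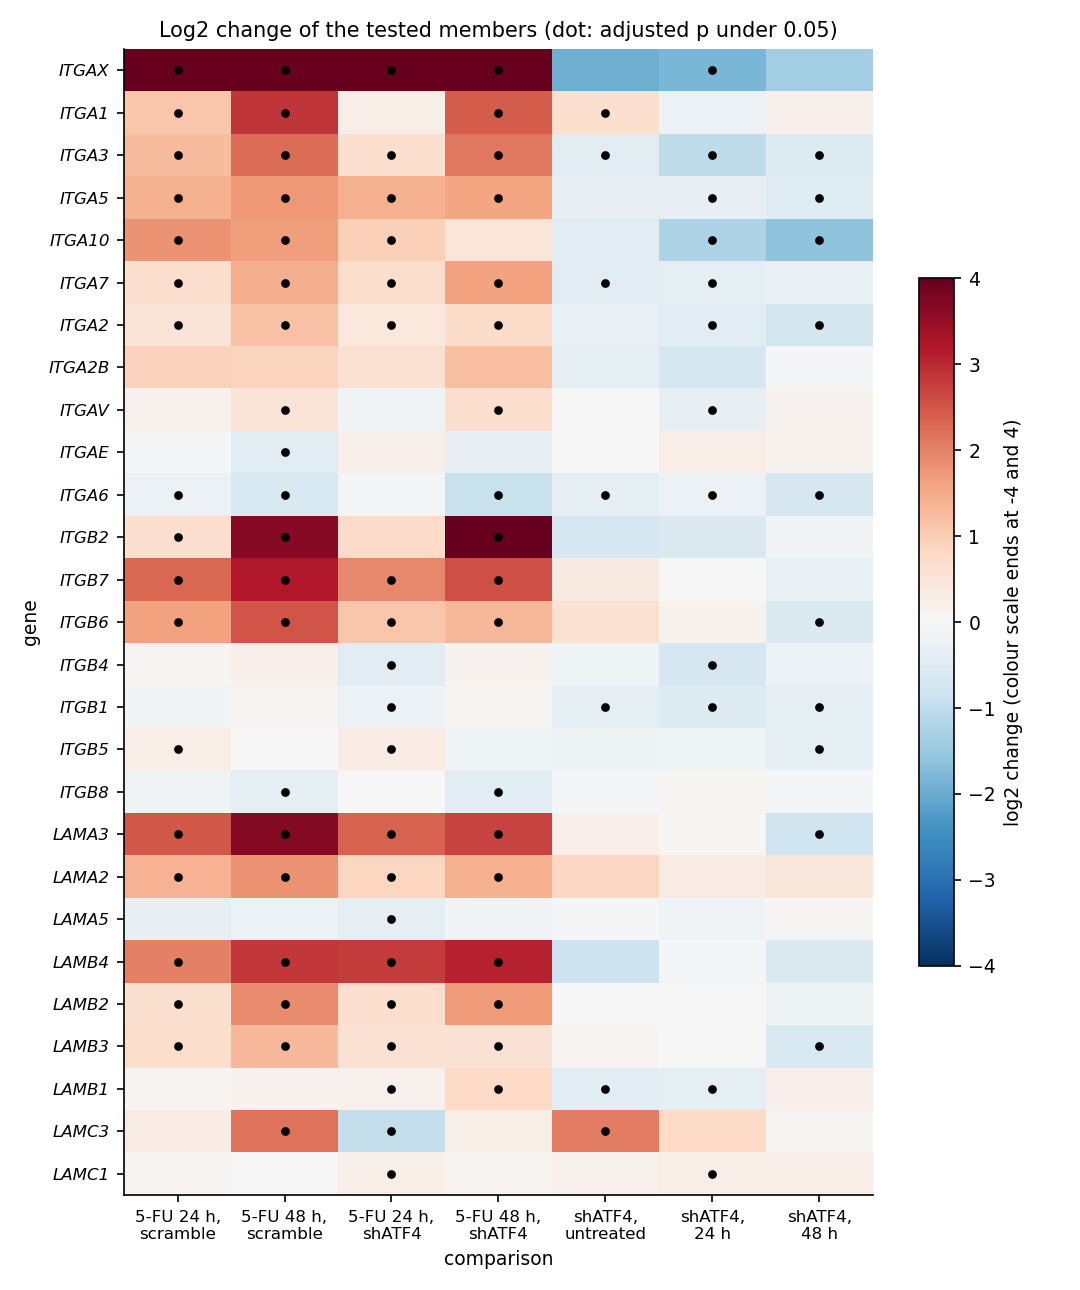
Log2 change of the tested genes shown (rows, ordered within each family by the scramble change at 48 h) in 7 comparisons (columns: 5-FU against untreated in each line and time, then shATF4 against scramble in each state). Colour gives the change, with the scale ending at -4 and 4, and dots mark calls. The 4 columns of 5-FU are mostly red and the 3 columns of the knockdown mostly pale blue; the ITGAX values rest on groups at or near 0 counts.

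LAMA3 and LAMB3 showed the clearest pattern among the ligands. Both rose with 5-FU in both lines, to similar levels at 24 h, and from 24 h to 48 h they went on rising in scramble cells but rose less, or were not called, in shATF4 cells. LAMA3 (chromosome 18, 23689443 to 23956222, plus strand, GRCh38), the alpha chain, stood at 25.7, 25.0 and 22.4 CPM in untreated scramble libraries, at 134, 146 and 133 CPM after 24 h and at 311 and 316 CPM after 48 h. In shATF4 cells it stood at 29, 29.8 and 24.5 CPM untreated, at 142, 144 and 145 CPM after 24 h and at 179 and 186 CPM after 48 h. The 2 lines overlapped untreated and at 24 h, and at 48 h both shATF4 libraries lay below both scramble libraries. The log2 rise over untreated was 2.5 ± 0.08 (SE) at 24 h and 3.68 ± 0.08 at 48 h in scramble, and 2.37 ± 0.08 and 2.71 ± 0.08 in shATF4. From 24 h to 48 h LAMA3 rose by 1.19 in scramble (adjusted p = 3.6e-10) and by 0.34 in shATF4 (adjusted p = 0.0012).

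LAMB3 (chromosome 1, 209614870 to 209652466, minus strand), the beta chain, was above LAMA3 from the start. It stood at 115, 128 and 114 CPM in untreated scramble libraries, at 193, 205 and 183 CPM after 24 h and at 288 and 291 CPM after 48 h. In shATF4 cells it stood at 123, 132 and 129 CPM untreated, at 197, 202 and 179.9 CPM after 24 h and at 176 and 203 CPM after 48 h. Its 24 h and 48 h libraries did not overlap in scramble and did overlap in shATF4. The change from 24 h to 48 h was 0.58 ± 0.08 in scramble (adjusted p = 8.4e-06) and -0.03 ± 0.08 in shATF4 (adjusted p = 0.80).

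A test of the difference itself, the response to 5-FU in shATF4 minus that in scramble, was negative at 48 h for both chains. It was -0.97 ± 0.12 for LAMA3 (adjusted p = 1.1e-04) and -0.72 ± 0.11 for LAMB3 (adjusted p = 0.0013). At 24 h it was -0.13 and -0.11, and neither was called (adjusted p = 0.57 and 0.61). Both calls at 48 h were kept in each of the 23 alternatives run, with adjusted p of at most 0.0017 and 0.019. Both genes were lower in shATF4 at 48 h, where LAMA3 differed by -0.78 ± 0.09 and LAMB3 by -0.61 ± 0.09.

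**Figure D2:**
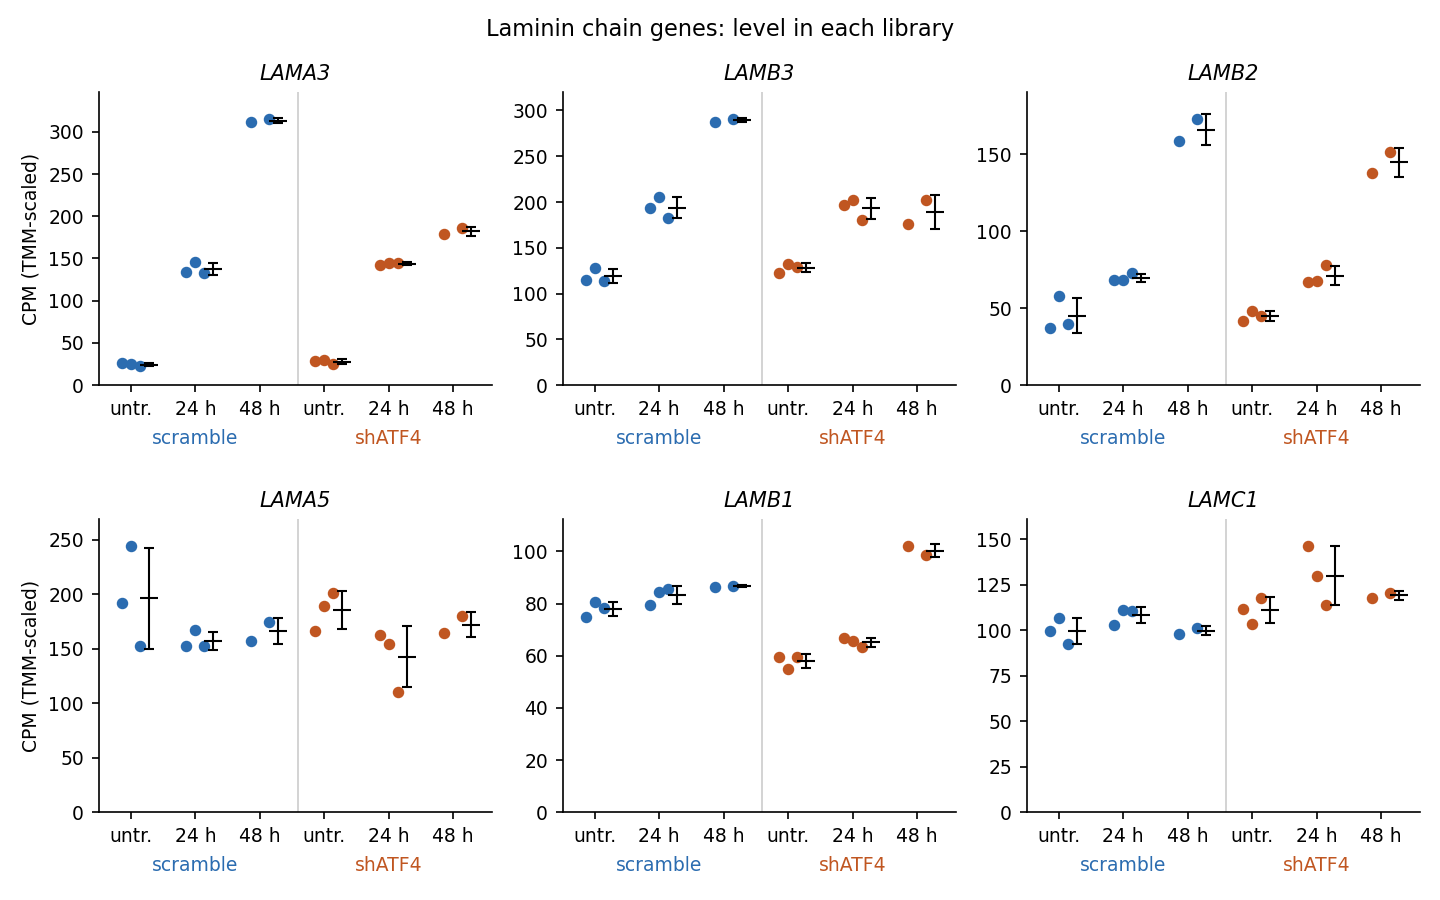
Level of 6 laminin chain genes in each library, in CPM, by group; points are libraries, and the bar beside them is the mean ± SD. The upper row holds LAMA3, LAMB3 and LAMB2, where the 48 h scramble points lie above the other points of their panel, and the lower row the laminin-511 chains, among which LAMB1 is highest in the 2 shATF4 libraries at 48 h.

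LAMA5, LAMB1 and LAMC1 moved little in scramble cells, and none of the 3 was called there at either time. LAMA5 stood at 192, 244 and 152 CPM untreated, 152, 167 and 153 CPM at 24 h and 157 and 174 CPM at 48 h in scramble, and at 166, 189 and 201, then 163, 154 and 111, then 164 and 180.4 CPM in shATF4. Its highest library was scramble untreated replicate 2 and its lowest shATF4 24 h replicate 3, the 2 libraries that stood apart. The fall called in shATF4 at 24 h (-0.38, adjusted p = 0.028) was not called without shATF4 24 h replicate 3 (adjusted p = 0.13), shATF4 untreated replicate 2 (0.072) or replicate 3 (0.11). LAMC1 stood at 99.5, 107 and 92.2 CPM untreated, 103, 111 and 110.2 CPM at 24 h and 98 and 101 CPM at 48 h in scramble, and at 112, 103 and 118, then 146, 129.6 and 114, then 117 and 121 CPM in shATF4. Its rise in shATF4 at 24 h (0.23, adjusted p = 0.031) was lost when any of 9 single libraries was left out. The largest of those adjusted p was 0.26, without shATF4 24 h replicate 1.

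LAMB1 went the other way from LAMA3 and LAMB3. It stood at 74.9, 80.5 and 78.3 CPM untreated, 79.5, 84.6 and 85.7 CPM at 24 h and 86.4 and 86.8 CPM at 48 h in scramble. In shATF4 it stood at 59.7, 54.8 and 59.5 CPM untreated, 66.8, 65.6 and 63.2 CPM at 24 h and 102 and 98.5 CPM at 48 h. The shATF4 libraries thus lay below all scramble libraries untreated (-0.43, adjusted p = 5.5e-04) and at 24 h (-0.35, adjusted p = 8.1e-04), and above them at 48 h (0.21, adjusted p = 0.099). The rise called in shATF4 at 24 h (0.17, adjusted p = 0.045) was lost in 15 of the 23 alternatives, at adjusted p up to 0.25 with no filter on low counts. Without shATF4 untreated replicate 2 it was 0.19, the highest with 1 library left out. At 48 h the rise in shATF4 was 0.79 ± 0.07, and the difference between lines in the 48 h response was 0.64 ± 0.10 (adjusted p = 0.0015, kept in all 23 alternatives). Its exons share 70 bases with DLD, which fell at 48 h in both lines (-0.90 and -0.67).

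LAMB2, the beta chain of vascular and neuromuscular laminins, rose in both lines without a called difference between them. It stood at 37.4, 58.1 and 39.9 CPM untreated, 68.4, 68.3 and 72.8 CPM at 24 h and 159 and 173 CPM at 48 h in scramble, and at 41.4, 48.0 and 45.0, then 67.4, 68.0 and 78.2, then 138 and 152 CPM in shATF4. The 48 h rise was 1.88 ± 0.13 in scramble and 1.69 ± 0.13 in shATF4. The 3 remaining tested chains were scarce, with group means of at most 2.93 CPM. LAMA2 rose from 0.614 to 2.14 CPM at 48 h in scramble (1.80 ± 0.32) and from 1.09 to 2.93 CPM in shATF4 (1.42 ± 0.28). LAMB4 rose from 0.288 to 2.11 CPM (2.82 ± 0.47) and from 0.160 to 1.42 CPM (3.07 ± 0.56). LAMC3 rose from 0.499 to 2.26 CPM in scramble at 48 h (2.17 ± 0.45) and was at 2.08, 1.07 and 2.44 CPM untreated, at 24 h and at 48 h in shATF4. Its fall in shATF4 at 24 h (-0.95, adjusted p = 0.045) was lost without shATF4 untreated replicate 3 (0.24) or shATF4 24 h replicate 2 (0.13) or 3 (0.12). In untreated cells LAMC3 was higher in shATF4 (2.04 ± 0.43, adjusted p = 0.0085), a call lost without scramble untreated replicate 3 (adjusted p = 0.0505) or shATF4 untreated replicate 3 (0.067).

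The make-up of the chain pool therefore shifted. In scramble, LAMA3 went from 11% ± 1.8 (SD, n = 3) of the summed laminin alpha FPKM untreated to 45.6% at 24 h and 64.4% ± 1.3 (n = 2) at 48 h. In shATF4 it went from 12.7% to 49.4% and 50.2% ± 1.1. The size of these shares depends on the gene lengths used. LAMB3 remained the leading beta transcript in all 6 groups, from 54.5% in shATF4 at 48 h to 68.9% in shATF4 at 24 h. The ratio of LAMB3 to LAMA3 in FPKM fell from 15.3 to 4.41 and 2.89 in scramble and from 14.5 to 4.21 and 3.25 in shATF4. Summed over its 5 genes, the alpha family went from 15.2 ± 3.31 to 33.2 ± 1.03 FPKM at 48 h in scramble and from 14.7 ± 1.08 to 24.6 ± 1.26 in shATF4.

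**Figure D3:**
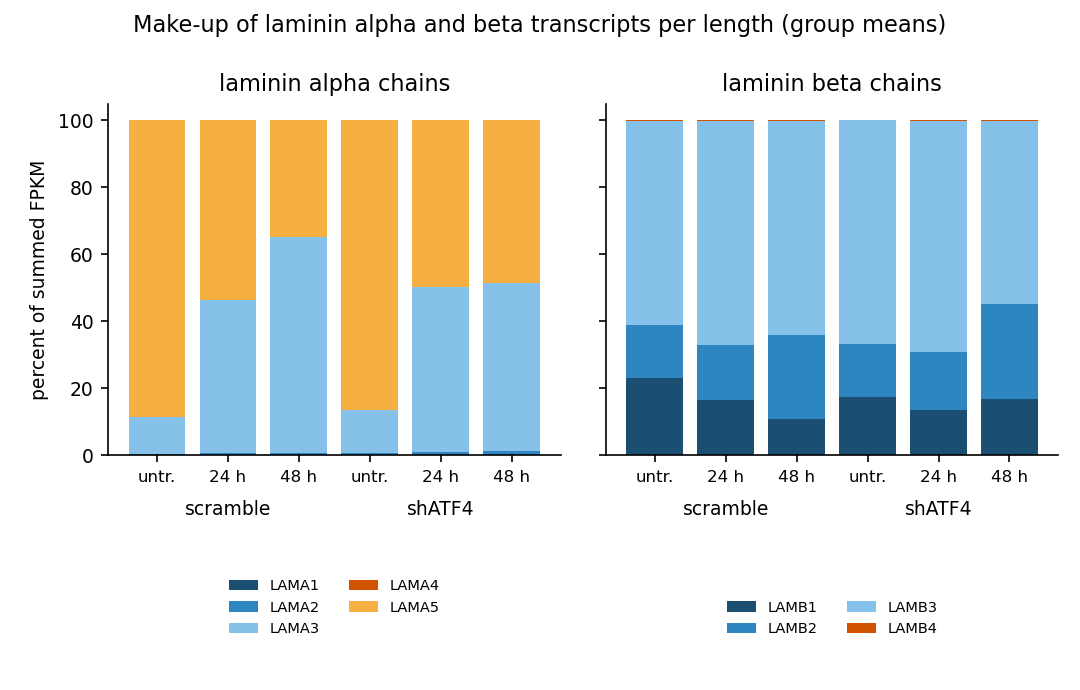
Share of each gene in the summed FPKM of the laminin alpha and beta genes (stacked bars, group means, percent) in untreated cells and after 24 h and 48 h of 5-FU in each line. LAMA3 reaches 64.4% of the summed alpha FPKM at 48 h in scramble and 50.2% in shATF4, and LAMB3 is the largest part of every beta bar.

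The 250 bases before the start sites of the members were searched for 3 motifs on both strands. The motifs were the AP-1 motif TGANTCA, the ATF4 motif TGATGNAA and the NF-kB motif. Promoters came from RefSeq (GRCh38.p14), which listed 33 promoters for 26 of the 38 genes. Counted per promoter, the AP-1 motif was in 2 of the 33 (6.06%), against 6.573% of all 35116 promoters, the ATF4 motif in 1 (3.03%, against 3.144%) and the NF-kB motif in 8 (24.2%, against 9.961%). The AP-1 matches belonged to LAMA3 and LAMB3 and the ATF4 match to ITGB5. The NF-kB matches belonged to 7 genes (ITGA1, ITGA5, ITGA10, ITGA11, ITGB1, ITGB8 and LAMB3), and promoters of 1 gene can overlap and share a match. The AP-1 and ATF4 matches are printed with the bases around them, 5′ to 3′ on the strand of the gene, with the match in capitals; the ATF4 motif of ITGB5 lies on the opposite strand. The first LAMA3 window is chr18:23872885-23872911 and the second chr18:23872941-23872967 (plus strand), 125 and 69 bases before a start within the gene, and both fall in an exon of another LAMA3 transcript. The LAMB3 window is chr1:209651425-209651451 (minus strand), 67 bases before a start within the gene. The ITGB5 window is chr3:124901592-124901619 (minus strand), 191 bases before its start, and neither window falls in an exon of its gene.
LAMA3 first AP-1 match: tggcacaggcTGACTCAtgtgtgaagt
LAMA3 second AP-1 match: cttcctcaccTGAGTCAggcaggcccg
LAMB3 AP-1 match: tcagccactcTGACTCAttcactttgg
ITGB5 ATF4 match: ggcatccagaTTGCATCAacaccaaaac
A match shows only that these letters are present; binding at these sites was not measured.

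Among the laminin receptors the 3 alpha subunits were called at 48 h in both lines, and the beta partners ITGB1 and ITGB4 in neither. ITGA3, the alpha subunit of the main epithelial laminin-332 receptor, stood at 16, 17.0 and 15 CPM untreated, 38.9, 37.8 and 39.4 CPM at 24 h and 69.3 and 80.6 CPM at 48 h in scramble. In shATF4 it stood at 12.8, 11.1 and 12.3 CPM untreated, 19.3, 19.1 and 18.9 CPM at 24 h and 49.7 and 53.7 CPM at 48 h. All shATF4 libraries lay below all scramble libraries of the same state, with the widest gap at 24 h (-1.02 ± 0.09, adjusted p = 1.3e-07). The 48 h rise was 2.23 ± 0.09 in scramble and 2.10 ± 0.10 in shATF4. The gap between the lines was -0.41 untreated (adjusted p = 0.020) and -0.54 at 48 h (adjusted p = 0.0010). The untreated call was lost without scramble untreated replicate 1 (adjusted p = 0.070) or 2 (0.082) or shATF4 untreated replicate 2 (0.13) or 3 (0.057), and the 48 h call without scramble 48 h replicate 2 (0.054).

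ITGA6, which pairs with ITGB4 in hemidesmosomes, was the only one of the 3 laminin-binding alpha subunits to fall. It stood at 428, 409.6 and 463 CPM untreated, 368, 357 and 377 CPM at 24 h and 284 and 280.3 CPM at 48 h in scramble. In shATF4 it stood at 355, 332 and 313 CPM untreated, 349, 314 and 278 CPM at 24 h and 184 and 173 CPM at 48 h. The fall at 48 h was -0.62 ± 0.09 in scramble and -0.90 ± 0.09 in shATF4, and shATF4 was lower than scramble untreated (-0.38, adjusted p = 0.0052) and at 48 h (-0.66, adjusted p = 9.3e-05). The fall at 24 h in scramble (-0.24, adjusted p = 0.013) was lost without scramble untreated replicate 3 (0.073) or scramble 24 h replicate 2 (0.068) and under upper-quartile scaling (0.077). ITGA7, a subunit best known from muscle, stood at 69.0, 74.3 and 51.2 CPM untreated, 101, 108 and 101 CPM at 24 h and 177 and 182 CPM at 48 h in scramble, and at 46.3, 46.3 and 51.2, then 78.0, 77.5 and 79.1, then 139 and 154 CPM in shATF4. It rose at 48 h by 1.47 ± 0.10 in scramble and 1.61 ± 0.11 in shATF4. In scramble, ITGA6 went from 68.1% ± 2.5 of alpha subunit FPKM untreated to 38.2% ± 0.29 at 48 h, while ITGA7 went from 10.5% to 24.9%. The shares in shATF4 moved from 65.7% to 32.6% and from 9.71% to 27.5%.

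ITGB1, the shared partner of many alpha subunits, stood at 329, 304 and 363 CPM untreated, 319, 299.6 and 308 CPM at 24 h and 364 and 356 CPM at 48 h in scramble, and at 277, 257 and 243, then 207, 204 and 243, then 295 and 264 CPM in shATF4. Each of the shATF4 libraries was below each of the scramble libraries (-0.36 untreated, -0.50 at 24 h and -0.36 at 48 h, each called). The untreated call was lost without scramble untreated replicate 3 (adjusted p = 0.067) or shATF4 untreated replicate 2 (0.062) or 3 (0.082), and the 48 h call without scramble 48 h replicate 1 (0.14) or 2 (0.095) or shATF4 48 h replicate 2 (0.21). ITGB4 stood at 392, 464 and 357 CPM untreated, 391, 453 and 419 CPM at 24 h and 459.6 and 477 CPM at 48 h in scramble, and at 336, 367 and 378, then 305, 284 and 209, then 363 and 427 CPM in shATF4. Its 5-FU changes in scramble were 0.06 and 0.21 and were not called. In shATF4 it fell at 24 h by 0.44 (adjusted p = 0.0032) and was then below scramble (-0.66 ± 0.11, adjusted p = 3.6e-04), with its lowest value in shATF4 24 h replicate 3. ITGB1 fell at 24 h in shATF4 by 0.25 (adjusted p = 0.015), a call lost without shATF4 untreated replicate 1 (0.085) or shATF4 24 h replicate 2 (0.076).

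Of the collagen receptors, ITGA1, ITGA2 and ITGA10 rose with 5-FU in scramble. ITGA1 stood at 3.95, 4.63 and 4.29 CPM untreated, 9.83, 7.98 and 9.71 CPM at 24 h and 31.5 and 31.6 CPM at 48 h in scramble. In shATF4 it stood at 7.24, 6.85 and 5.94 CPM untreated, 8.42, 7.81 and 7.28 CPM at 24 h and 36.7 and 35.2 CPM at 48 h. The 24 h libraries lay far above the untreated ones in scramble and just above them in shATF4. The rise at 24 h was 1.09 ± 0.13 in scramble and 0.23 ± 0.12 in shATF4 (adjusted p = 0.15), and at 48 h 2.87 and 2.43. The higher untreated level in shATF4 (0.64, adjusted p = 0.0099) was lost without scramble untreated replicate 1 (0.063) or shATF4 untreated replicate 1 (0.062). ITGA1 shares 475 exon bases with PELO on the same strand, which changed by 0.21 at 48 h in scramble (adjusted p = 0.055).

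ITGA2, whose gene lies 30.1 kb from that of ITGA1, stood at 30.2, 29.2 and 32.8 CPM untreated, 45.0, 40.8 and 47.5 CPM at 24 h and 74.5 and 65.1 CPM at 48 h in scramble, and at 26.2, 22.3 and 26.2, then 35.7, 31.0 and 32.6, then 44.6 and 38.5 CPM in shATF4. It rose at 48 h by 1.18 ± 0.10 in scramble and 0.74 ± 0.11 in shATF4 and was lower in shATF4 at 24 h (-0.43, adjusted p = 0.0033) and 48 h (-0.75, adjusted p = 1.6e-04). ITGA10 was scarcer, with means of 1.22, 4.21 and 3.86 CPM in scramble and 0.907, 1.77 and 1.26 CPM in shATF4. It was lower in shATF4 by 1.24 at 24 h (adjusted p = 4.1e-04) and by 1.61 at 48 h (adjusted p = 5.1e-04). Its rise over untreated was called at both times in scramble (1.78 and 1.66) and in shATF4 at 24 h (0.97) but not at 48 h (0.47, adjusted p = 0.19). Leaving out both libraries that stood apart ended the 24 h call in shATF4 (adjusted p = 0.051).

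Receptors for fibronectin and other RGD ligands split into ITGA5 and ITGB6, which rose most, and genes that changed by less. ITGA5, the fibronectin receptor subunit, stood at 24.6, 24.7 and 20.3 CPM untreated, 58.5, 62.5 and 64.5 CPM at 24 h and 77.0 and 77.6 CPM at 48 h in scramble, and at 15.8, 19.3 and 20.2, then 49.6, 53.2 and 45.1, then 52.2 and 58.4 CPM in shATF4. The rise at 24 h was 1.42 ± 0.10 in each line, and at 48 h 1.74 and 1.59. The lower level in shATF4 was called at 24 h (-0.33, adjusted p = 0.017) and 48 h (-0.48, adjusted p = 0.0080). The 24 h call was lost without scramble 24 h replicate 3 (0.062) or shATF4 24 h replicate 3 (0.0505), and the 48 h call without scramble 48 h replicate 1 (0.066) or 2 (0.0703) or shATF4 48 h replicate 1 (0.12).

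ITGB6, the epithelial partner of ITGAV that activates latent TGF-beta, resembled LAMA3 and LAMB3 from 24 h to 48 h. Unlike theirs, its untreated libraries did not overlap between the lines. It stood at 2.93, 2.73 and 3.15 CPM untreated, 8.22, 7.86 and 10.7 CPM at 24 h and 17.3 and 15.9 CPM at 48 h in scramble. In shATF4 it stood at 5.19, 4.01 and 4.29 CPM untreated, 10.5, 9.61 and 9.26 CPM at 24 h and 10.8 and 11.7 CPM at 48 h. The shATF4 libraries lay above scramble untreated and below it at 48 h, and the difference in the 48 h response holds both gaps. The difference between lines in the 48 h response was -1.18 ± 0.23 (adjusted p = 0.0073), kept in all 23 alternatives with adjusted p of at most 0.048. The change from 24 h to 48 h was 0.90 in scramble (adjusted p = 4.2e-05) and 0.20 in shATF4 (adjusted p = 0.27). The lower level in shATF4 at 48 h (-0.56, adjusted p = 0.023) was lost when any of the 4 libraries at 48 h was left out, with adjusted p from 0.082 to 0.20.

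ITGAV, ITGB5 and ITGB8 changed by less. ITGAV stood at 44.4, 33.7 and 44.7 CPM untreated, 49.3, 41.9 and 47.3 CPM at 24 h and 59.0 and 58.1 CPM at 48 h in scramble, and at 45.1, 39.2 and 36.4, then 41, 36.0 and 32.7, then 71.3 and 56.9 CPM in shATF4. It rose at 48 h by 0.52 ± 0.13 in scramble and 0.67 ± 0.13 in shATF4. ITGB5 stood at 145, 139 and 134 CPM untreated, 165, 173 and 167 CPM at 24 h and 139 and 138 CPM at 48 h in scramble, and at 121, 119 and 125, then 150.2, 159 and 137, then 106 and 111 CPM in shATF4. The libraries at 24 h were above both the untreated and the 48 h libraries in each line, with a rise of 0.28 in scramble and 0.29 in shATF4 at 24 h. ITGB8 stood at 17.0, 18.2 and 18.7 CPM untreated, 18.9, 13.6 and 16 CPM at 24 h and 14.7 and 12.8 CPM at 48 h in scramble, and at 17.7, 17.9 and 16.8, then 19.5, 18.2 and 14.3, then 14.9 and 11.3 CPM in shATF4. Its fall at 48 h (-0.38 and -0.42) was not called under upper-quartile scaling (adjusted p = 0.18 and 0.11). Without scramble 48 h replicate 2 the adjusted p in scramble was 0.22, without scramble untreated replicate 2 or 3 it was 0.062 and 0.078, and in shATF4 it was 0.29 without shATF4 48 h replicate 2 and 0.055 without shATF4 untreated replicate 2.

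Of the integrin genes best known from blood cells, ITGB7 and ITGB2 were among the members that rose most at 48 h, while ITGAE fell in scramble. ITGB7, the partner of ITGA4 and ITGAE on lymphocytes, stood at 4.76, 5.64 and 5.56 CPM untreated, 25.9, 27.9 and 25.2 CPM at 24 h and 48.4 and 50.4 CPM at 48 h in scramble, and at 5.33, 7.75 and 7.44, then 26.1, 27.6 and 24.6, then 37.7 and 44.6 CPM in shATF4. No 2 states of a line overlapped. The rise was 2.30 ± 0.13 and 3.21 ± 0.13 in scramble and 1.93 ± 0.12 and 2.59 ± 0.13 in shATF4. The exons of ITGB7 share 1886 bases, 42.1% of its length, with ZNF740 on the opposite strand, and whether the counting used strand is not given in the sources used. ZNF740 changed by 0.05 and 0.41 at 24 h and 48 h in scramble. Its reads and those of ITGB7 cannot be told apart within the shared bases.

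ITGB2, the common beta subunit of leukocyte integrins, stood at 0.878, 1.08 and 1.14 CPM untreated, 1.49, 1.57 and 1.89 CPM at 24 h and 12.6 and 13.6 CPM at 48 h in scramble, and at 0.410, 0.692 and 0.859, then 1.25, 0.760 and 1.28, then 10.5 and 13.6 CPM in shATF4. Most of its rise came between 24 h and 48 h, by 2.98 ± 0.21 in scramble and 3.43 ± 0.22 in shATF4. The rise at 24 h in scramble (0.67, adjusted p = 0.048) was lost under 13 of the 23 alternatives, with adjusted p up to 0.15. ITGAX, its dendritic cell and macrophage partner, had 1 count in the 3 untreated scramble libraries, 38 counts at 24 h and 70 counts in the 2 libraries at 48 h. These give depth-scaled count ratios of 33.6 (exact 95% interval 5.67 to 1361) and 90.9 (15.8 to 3642), which cover counting error only. In shATF4 it had 0 counts untreated, 10 at 24 h and 29 at 48 h, at least 3.01-fold and at least 11.4-fold higher against 3 counts over the untreated group. ITGAX reached the minimum level only in scramble at 48 h, so it entered the tests through the group where it was highest. A list of 10 leukocyte markers summed to 0.293 to 2.0 CPM over all 16 libraries, with MS4A1 and TYROBP at 0 in each of them and PTPRC at 0 in each untreated library. The remaining leukocyte alpha subunits ITGAL, ITGAM and ITGAD stayed under 0.65 CPM in every library.

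ITGAE, the partner of ITGB7 on intraepithelial lymphocytes, stood at 50.9, 38.3 and 44.7 CPM untreated, 45.7, 42.1 and 42.2 CPM at 24 h and 33.5 and 31.3 CPM at 48 h in scramble. In shATF4 it stood at 43.9, 43.4 and 48.5 CPM untreated, 42.9, 45.3 and 67.5 CPM at 24 h and 36.7 and 34.9 CPM at 48 h. Its highest library was shATF4 24 h replicate 3, one of the 2 that stood apart, and its lowest 4 were those at 48 h. The fall at 48 h in scramble (-0.46 ± 0.15, adjusted p = 0.011) was lost without scramble untreated replicate 1 (0.061) or scramble 48 h replicate 2 (0.069) and under upper-quartile scaling (0.074). It shares 427 exon bases with HASPIN on the opposite strand. ITGA2B, the platelet subunit, was at group means of 0.328 to 0.822 CPM and was called in no comparison (lowest adjusted p = 0.091), while the platelet markers PF4 and GP9 were at 0 throughout.

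**Figure D4:**
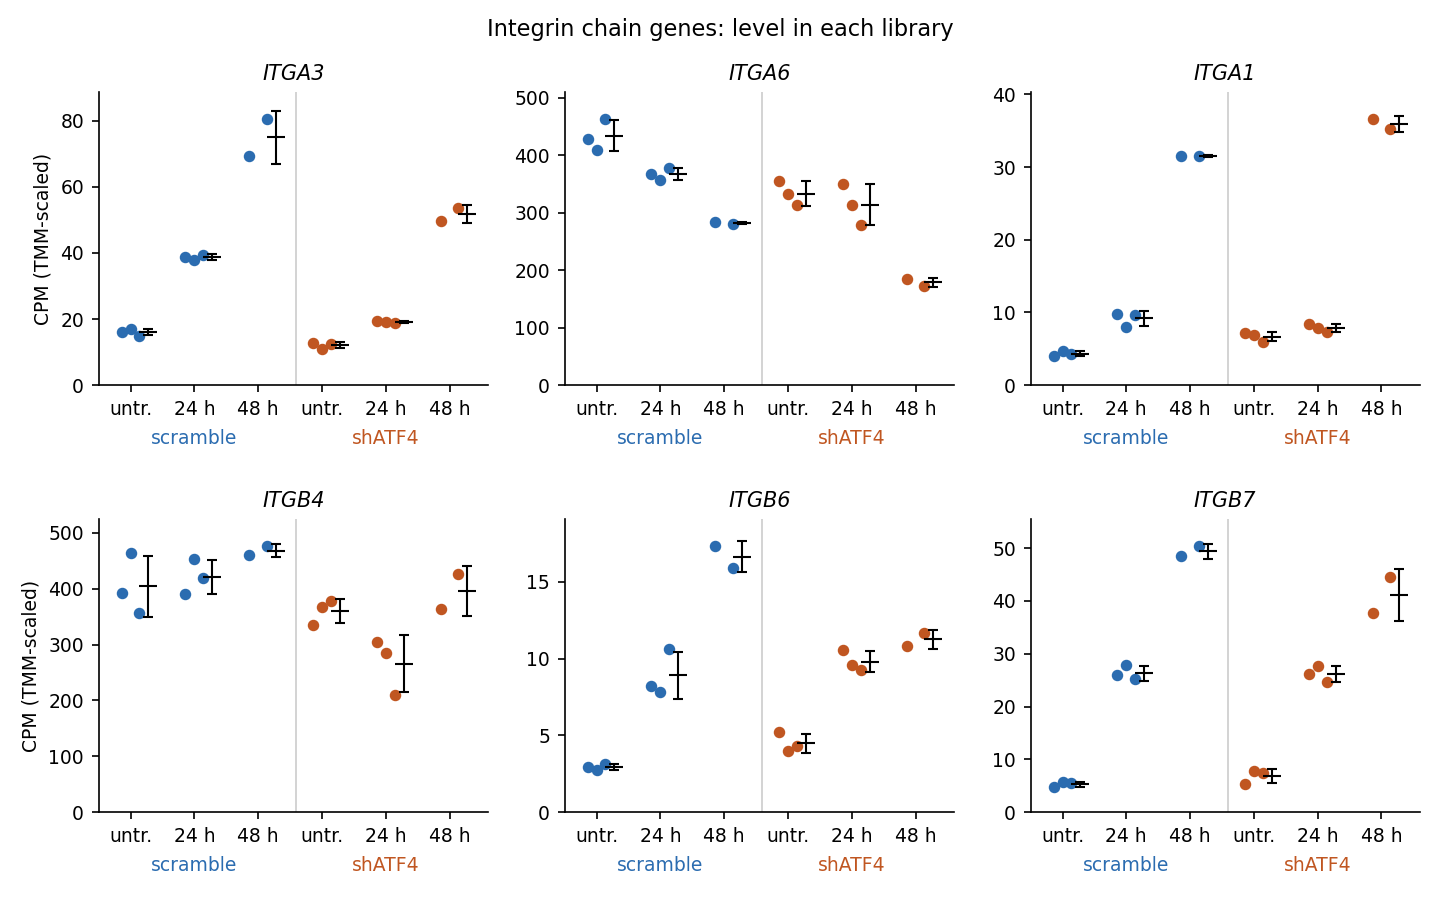
Level of 6 integrin subunit genes in each library, in CPM, by group; points are libraries, and the bar beside them is the mean ± SD. ITGA3, ITGA1, ITGB6 and ITGB7 rise from left to right in each line, ITGA6 falls, and ITGB4 has its lowest point in a shATF4 library at 24 h.

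More of the tested members were called lower than higher in shATF4 in each of the 3 states, by a small margin in untreated cells. Untreated, 3 were higher and 5 lower in shATF4, a share of 28.6% where 2.92% of all genes were called (1.08% higher and 1.84% lower). Among the higher ones were ITGA1 and LAMC3, and the lower ones were ITGA3, ITGA6, ITGA7, ITGB1 and LAMB1. The count was 5 without scramble untreated replicate 1, without shATF4 untreated replicate 2 or without replicate 3. ITGA7 differed by -0.44 (adjusted p = 0.015), a call lost without scramble untreated replicate 1 (0.092) or 2 (0.097) or shATF4 untreated replicate 1 (0.076) or 2 (0.088). The calls of ITGA6 and LAMB1 were kept in every alternative. At an unadjusted p under 0.05, edgeR gave 8 lower and 7 higher in untreated cells, nearly an even split. The share of all genes at that threshold was not counted.

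At 24 h 11 were lower and 1 higher (42.9%, against 20.4% of all genes, with 10.5% higher and 9.89% lower), and 10 of the 11 were integrins, of which 18 were tested. The higher one was LAMC1 (0.27, adjusted p = 0.028). That call was lost under 8 alternatives, 7 of them with 1 library left out, at adjusted p up to 0.18 (without shATF4 24 h replicate 1). Without scramble 24 h replicate 3 the count was 7. The lower integrins that kept their call in every alternative were ITGA2, ITGA3, ITGA7, ITGA10, ITGB1 and ITGB4, and LAMB1 did so too. ITGA6 (-0.23, adjusted p = 0.037) lost it without any of the scramble 24 h libraries (0.051 to 0.11) or shATF4 24 h replicate 2 (0.083) or 3 (0.12). ITGAV (-0.34, adjusted p = 0.045) lost it in 10 alternatives, at adjusted p up to 0.15 without scramble 24 h replicate 1, and ITGAX lost it in 6, up to 0.18 without the same library.

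At 48 h 11 were lower and 0 higher by edgeR (39.3%, against 9.45% of all genes, with 3.92% higher and 5.53% lower), and DESeq2 likewise gave 11 lower and 0 higher. At an unadjusted p under 0.05, edgeR gave 14 lower and 2 higher, and the share of all genes at that threshold was not counted. The count was 6 without either scramble 48 h library and 7 without shATF4 48 h replicate 1. Among the 11 were ITGA2, ITGA3, ITGA5, ITGA6, ITGA10, ITGB1, ITGB5, ITGB6, LAMA3 and LAMB3. The calls of ITGA2, ITGA6, ITGA10, LAMA3 and LAMB3 were kept in every alternative. ITGB5 differed by -0.35 (adjusted p = 0.0063) and lost its call without scramble 48 h replicate 1 (0.074) or 2 (0.061) or shATF4 48 h replicate 1 (0.085). The median of the tested members was -0.12 untreated, -0.20 at 24 h and -0.28 at 48 h, beside -0.01, 0.01 and 0.00 over all genes.

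Few members differed between the lines in the response to 5-FU itself. At 24 h 2 of 28 were called, both lower (7.14%, against 2.13% of all genes, with 0.947% higher and 1.18% lower): ITGA1 (-0.87 ± 0.18, adjusted p = 0.019) and ITGA3 (-0.61 ± 0.13, adjusted p = 0.021). Both were lost without scramble untreated replicate 1 (0.055 for ITGA1 and 0.053 for ITGA3), scramble 24 h replicate 3 (0.054 and 0.054) or shATF4 untreated replicate 1 (0.061 and 0.063). ITGA1 was also lost without scramble 24 h replicate 1 (0.054) or shATF4 untreated replicate 2 (0.058), and ITGA3 without shATF4 24 h replicate 2 (0.051). Without shATF4 24 h replicate 1 the count was 4. At 48 h 5 were called (17.9%, against 2.74% of all genes, with 1.3% higher and 1.44% lower), among them LAMA3, LAMB3 and ITGB6 lower and LAMB1 higher. All 5 were called in each of the 23 alternatives. ITGA10 (-1.19 ± 0.40, adjusted p = 0.13), LAMC3 (-1.93 ± 0.59, adjusted p = 0.088) and ITGB7 (-0.62 ± 0.19, adjusted p = 0.087) had estimates of like size or sign but were not called.

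**Figure D5:**
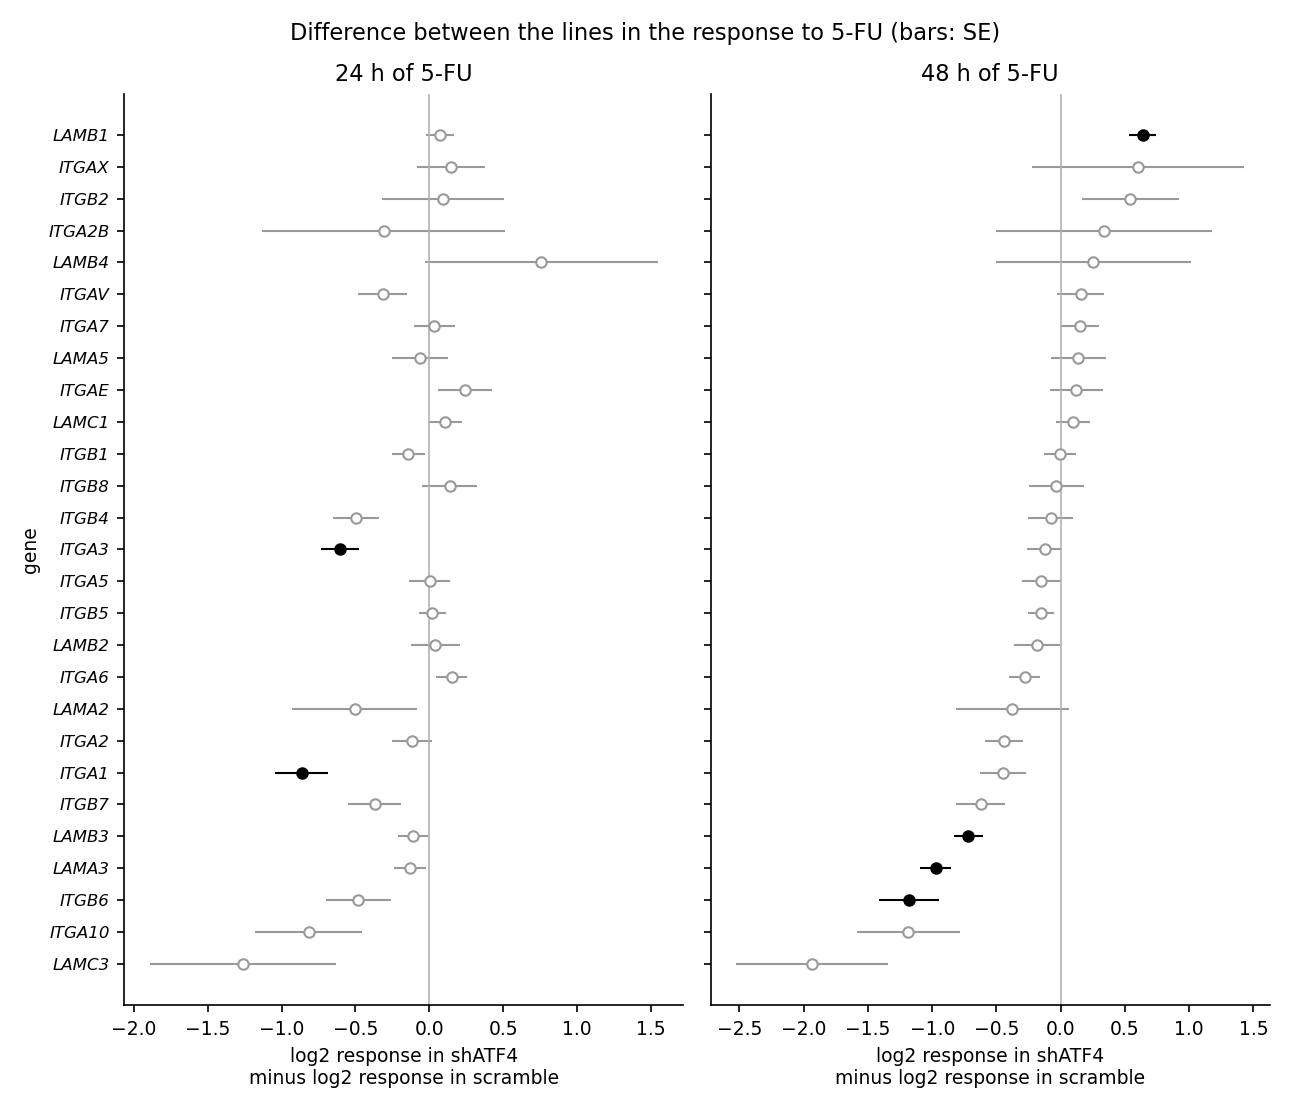
Difference between the lines in the log2 response to 5-FU (shATF4 minus scramble; x axis) for the tested genes shown, at 24 h and 48 h; bars are SE, and filled points were called. At 48 h the filled points are ITGB6, LAMA3 and LAMB3 on the left and LAMB1 on the right. ITGAX rests on 0 counts in untreated shATF4 libraries.

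From 24 h to 48 h, 15 members rose and 3 fell in scramble (64.3%, against 38.3% of all genes, with 18.8% higher and 19.5% lower). In shATF4 15 rose and 4 fell (67.9%, against 48.2% of all genes, with 23.7% higher and 24.5% lower). Upper-quartile scaling took the higher share of all called genes from 49.1% to 60.2% in scramble. ITGB2, ITGA1, ITGA3 and LAMB2 had rises of at least 0.95 in both lines. LAMA3 (1.19 and 0.34), LAMB3 (0.58 and -0.03) and ITGB6 (0.90 and 0.20) had the larger value in scramble, and LAMB1 (0.06 and 0.62) in shATF4. ITGA6 fell in both (-0.38 and -0.81), as did ITGB5 (-0.29 and -0.46). The gene called lower beside ITGA6 and ITGB5 in both lines was ITGAE (-0.42 and -0.54), and ITGB8 was called lower in shATF4 (-0.41). The scramble call of ITGAE was lost without scramble 24 h replicate 1 (0.068), scramble 48 h replicate 1 (0.064) or 2 (0.14), and under upper-quartile scaling (0.069). The shATF4 call of ITGB8 was lost without shATF4 24 h replicate 1 (0.13) or 2 (0.081) or shATF4 48 h replicate 2 (0.38). It was also lost under upper-quartile scaling (0.089) and in the fit to only the compared groups (0.093).

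Among 30 genes for adaptors that link integrins to actin, 13 were higher and 6 lower at 24 h in scramble (63.3% called, against 44% of all genes) and 13 higher and 8 lower at 48 h (70%, against 60.7%). In shATF4 the counts were 13 and 8 (70%, against 44.4%), then 15 and 7 (73.3%, against 58.3%). Their median change at 48 h was 0.10 in scramble and 0.32 in shATF4, beside 0.03 over all genes in each. Among those with the largest 48 h changes in scramble, these rose: TNS1, a tensin (5.04 ± 0.53, from 0.179 to 6.18 CPM), LIMS2 (1.70), PARVG (1.66) and TGFB1I1 (1.65). TNS4 (-0.41, adjusted p = 0.0033) was among the 2 adaptors lower in untreated shATF4 cells.

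Of 24 genes for other matrix ligands, 17 were tested, and 5 were higher and 6 lower at 48 h in scramble. The share called, 64.7%, was near the 60.7% of all genes, and their median change was -0.18. COL7A1, the anchoring fibril collagen that binds laminin-332, went from 19.3 to 92.7 and 223 CPM in scramble and from 14.1 to 66.0 and 114 CPM in shATF4. Its 48 h rise was 3.52 ± 0.14 in scramble and 3.03 in shATF4, and the difference between lines in that response was -0.50 (adjusted p = 0.22). Of the 17 tested ligands, 3 were called for that difference, all lower (17.6%, against 17.9% of the tested members and 2.74% of all genes). The median difference was -0.55 for the ligands and -0.14 for the members. TNC, which encodes tenascin-C, went from 1025 to 1161 and 185 CPM in scramble, a fall of 2.47 at 48 h, and fell by 3.2 in shATF4. COL18A1 (-1.19), NID1 (-1.05), the nidogen that bridges laminin and collagen IV, and SPP1 (-2.61) were lower at 48 h in scramble. FN1, fibronectin, was higher in untreated shATF4 cells (371 against 125 CPM, 1.57 ± 0.08, adjusted p = 1.2e-10), and at 48 h stood at 93.6 and 95.6 CPM in shATF4 and scramble.

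Of 16 genes for other laminin receptors, hemidesmosome parts and integrin-binding tetraspanins, all tested, 8 were higher and 4 lower at 48 h in scramble (75% called, against 60.7% of all genes) and 8 higher and 6 lower in shATF4 (87.5%, against 58.3%). Their median change was 0.13 and 0.16. COL17A1, the transmembrane collagen of hemidesmosomes, went from 0.311 to 4.89 CPM in scramble (3.92 ± 0.38) and from 0.141 to 1.78 CPM in shATF4 (3.60). MCAM, a laminin receptor of the immunoglobulin family, went from 7.11 to 79.3 CPM and from 9.15 to 63.5 CPM, with a difference between lines in the 48 h response of -0.68 (adjusted p = 0.030). CD82 (1.80) and SDC4 (1.62) rose at 48 h in scramble, and RPSA, which encodes both a ribosomal protein and the 67 kDa laminin receptor, fell by 1.34. SDC1 was the gene of this list lower in untreated shATF4 cells (-0.39, adjusted p = 0.0059).

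The authors' deposited table gives its own calls for 7 of the comparisons. At an adjusted p under 0.05 it has 16 members higher and 1 lower at 24 h and 18 higher and 2 lower at 48 h in scramble, where 25.1% and 33.2% of its genes are called. The authors' deposited table has 12 higher and 3 lower at 24 h and 17 higher and 3 lower at 48 h in shATF4 (21.4% and 32.7% of its genes). For the knockdown the authors' deposited table has 2 higher and 4 lower untreated, 0 and 9 at 24 h, and 1 and 12 at 48 h (1.7%, 7.66% and 6.13% of its genes).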

How the data were processed

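Messenger RNA of 16 SW620 libraries was counted by the authors. The submitters' processing notes name featureCounts 1.5.0-p3 and GRCh38. The deposited values used here were whole-number counts per gene. No source used here gives the aligner, the annotation release or the strand setting. FPKM values, used to compare levels between genes, were deposited by the authors and are scaled to gene length and to a library size that differs from the summed count. The authors' deposited log2 fold changes and adjusted p-values were used only for their call counts. The start and end of all 38 members equal those of GENCODE 29, and the length equals that of all GENCODE 29 exons of the gene joined. Groups came from the titles. Replicates are not described as separate cultures, so p-values measure the spread between these libraries, which may be technical. No replicates held identical values, and chi-square per degree of freedom between them ran from 1.81 to 28.2.

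With edgeR 4.0.16 (R 4.3.3), genes were filtered by filterByExpr, which left 17309 genes with 99.9% of counts. Libraries were scaled by TMM, and a single quasi-likelihood model of the 6 groups took in all 16 libraries and left 10 residual degrees of freedom (common biological coefficient of variation 0.0847). There were 11 comparisons: 5-FU against untreated (4), shATF4 against scramble (3), 48 h against 24 h (2) and the difference between lines in the response (2). P-values were adjusted by Benjamini-Hochberg over all genes at a threshold of 0.05, and SE came from the F statistic. The script was tested on simulated data. Intervals rest on counts summed over the libraries of a group, so they cover counting error only and leave out the spread between libraries. Reads carry no molecular identifiers, so duplicate reads could not be told apart.

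The alternatives were RLE and upper-quartile scaling, DESeq2 1.42.0, no low-count filter, a fit to only the compared groups, a replicate block, each library left out, and both libraries that stood apart left out. Members, partner lists, markers and motifs were chosen with earlier results of these data known. Counts cover all tested members; some results by gene are not reported here. The other tested members are named, those with a group mean of at least 5 CPM library by library. Partner genes come from the 5 per list with the largest 48 h change in scramble among those called (mean level of 1 CPM or more), and any called in untreated shATF4.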

Additional observations from a re-analysis of the deposited data

Results flagged for a closer look

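A test of the difference between the 2 lines in their 5-FU response passed in the following cases. At 24 h it was lower in shATF4 for ITGA1 (-0.87, adjusted p = 0.019) and ITGA3 (-0.61, adjusted p = 0.021), and both calls were lost when any of several single libraries was left out. At 48 h it was lower for ITGB6 (-1.18, adjusted p = 0.0073), LAMA3 (-0.97, adjusted p = 1.1e-04) and LAMB3 (-0.72, adjusted p = 0.0013), and higher for LAMB1 (0.64, adjusted p = 0.0015). All values are log2 and come from edgeR's quasi-likelihood test. No group held the 4 or more libraries needed to look for single outlying libraries.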

How the results depend on the processing

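Of all member results that were called in the main analysis or in an alternative, none changed direction. When each library was left out in turn, the number of members called ran from 16 to 19 and 19 to 22 for 5-FU at 24 h and 48 h in scramble and from 17 to 21 and 18 to 21 in shATF4. It ran from 5 to 10 untreated, 7 to 13 at 24 h and 6 to 12 at 48 h for shATF4 against scramble, from 13 to 19 and 15 to 20 for 48 h against 24 h, and from 0 to 4 at 24 h and 5 to 6 at 48 h for the difference between lines. A fit to only the compared groups gave 5 members for untreated shATF4 against scramble, where fewer libraries set the spread. Upper-quartile scaling took the higher share of all called genes for the 24 h difference between lines from 44.4% to 30.7%. Replicate numbers are not said to pair the libraries, and the deviations of same-numbered libraries correlated by -0.148 to 0.187 (over 0.1 in 8 of 36 pairs, and best with the own number for 9 of 16 libraries). Libraries with different numbers correlated by -0.187 to 0.160 (over 0.1 in 6 of 70 pairs). The median was 0.044 for the same number and -0.020 for different numbers, so some sharing by number is possible. With the replicate block the counts of called members were 19, 22, 21 and 20 for 5-FU (24 h and 48 h in scramble, then shATF4), 9, 13 and 11 for the knockdown, 19 and 19 for 48 h against 24 h, and 3 and 7 for the difference between lines. Over all genes, calls moved by over 1.5 times from 506 to 891 (untreated knockdown, both libraries that stood apart left out), from 3533 to 2189 (24 h knockdown, compared groups only) and from 1636 to 2748 and 3021 (48 h knockdown, the same 2 settings). For the 24 h difference they moved from 369 to 173 (compared groups only), 696 (DESeq2), 798 (no filter), 644 (block) and 647 (both libraries out), and for the 48 h difference from 475 to 1204 (both libraries out). With each library left out these counts ran from 277 to 774, 2067 to 3885, 600 to 2463, 65 to 1188 and 136 to 991, and for 48 h against 24 h in scramble from 4363 (without scramble 48 h replicate 2) to 7485, with 6621 in the main analysis. Depth limits ITGAX, LAMA2, LAMB4, LAMC3 and ITGA2B most.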
